A study of Mus musculus with 30 samples.

Results

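The cholesterol and fatty acid synthesis genes described here are 34 listed mouse genes of the lipid synthesis programme driven by the sterol regulatory element binding proteins (SREBPs), together with the sensors, the carriers and the sterol exporters of the same system. Each gene was represented by 1 probe set, the one annotated to that symbol alone with the highest mean level over the 30 arrays of the series. Such a probe set was found for 33 of the 34 genes, and 24 of the 33 had more than 1. Acat2, which encodes a thiolase at the entry of the pathway, had no probe set under its symbol in the annotation used and was not analysed here. All 33 genes passed the filter on low values, among 12183 genes tested and 18193 genes with a probe set of a single symbol. They were ordered by role into 6 genes of the mevalonate steps, 11 of the sterol steps, 6 of control and transport, 8 of the fatty acid steps and 2 of sterol efflux.

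Cells make cholesterol from acetyl-CoA, first through mevalonate to farnesyl diphosphate and then through squalene and lanosterol to the finished sterol. When membrane cholesterol is low, the escort protein SCAP carries the SREBPs from the endoplasmic reticulum to the Golgi, where they are cut, and the freed fragments enter the nucleus and drive the genes of cholesterol and fatty acid synthesis. INSIG proteins hold SCAP back when sterols are plentiful, and sterol-activated liver X receptors then drive the exporters Abca1 and Abcg1. Lymphocytes that start to divide build new membrane, and plasma cells enlarge the endoplasmic reticulum in which secreted antibody is folded.

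Resting B cells from mouse spleen were measured on 30 Affymetrix mouse arrays in 10 groups of 3, and all mice were of the C57BL/6, B1-8i background, which carries a rearranged antibody heavy chain gene. Wild-type (WT) cells were Irf4+/+, and knockout (KO) cells were Irf4-/- and carried an Irf4 gene inducible by doxycycline (DOX). IRF4 is a transcription factor needed for plasma cell formation. WT cells were measured unstimulated at day 0 and after 1 and 3 days with CD40L, IL-2, IL-4 and IL-5. KO cells were measured at day 0 without DOX, and after 1 and 3 days of the same stimulation with 0, 16 (low) or 100 (high) ng/mL DOX. The inducible gene was therefore present in every KO culture, also at zero DOX, and no WT culture with DOX is among the groups. Each array came from the cells of an individual mouse, and the 3 replicates of a group were not all handled at the same time. Same-numbered KO arrays deviated together from their group means in 63 of 63 pairs, so KO groups are not independent by the data. The main fit treats all arrays as independent, and fits with the replicate number as a block are given as alternatives. No age is given for the mice.

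Levels below are log2(intensity + 16), differences are on the same log2 scale with the standard error (SE) of the fit, and a gene is called where limma's Benjamini-Hochberg adjusted p over the 12183 genes was under 0.05. The Irf4 probe set that followed the dose read 7.23 to 8.21 in all 9 WT arrays and in 8 of the 9 KO arrays at zero DOX, and 13.53 to 13.66 at high DOX on day 3. The array labelled KO zero DOX day 1 replicate 2 read 10.77, and the array labelled KO low DOX day 1 replicate 2 read 7.69, so each went against its label. Counts that rest on the first of these arrays are given with and without both. A second Irf4 probe set read 10.89 to 12.78 in KO arrays at zero DOX, against 10.77 to 13.22 in WT. No source used here says whether either set lies in the deleted part of the gene. In KO on day 3 the second set read 10.89 to 11.44 at zero and 11.00 to 11.31 at high DOX. It stands for Irf4, the gene deleted and induced by design, as 1 of the 6 plasma cell markers counted and summed below. By Xist and Y-linked probe sets, KO replicates 1 and 2 had a male pattern, and KO replicate 3 and all WT arrays had a female pattern. The summed intensity of 5 B cell marker genes at day 0 was 47986 to 50403 in WT and 45102 to 47900 in KO. The summed intensity of 16 myeloid marker genes was higher at zero DOX in KO (9302 to 19441 at day 0 and 10008 to 18913 at day 3) than in WT (3876 to 4116 and 2867 to 3182). In bulk RNA such as this, fewer cells of a type and less RNA per cell cannot be told apart.

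**Figure D1:**
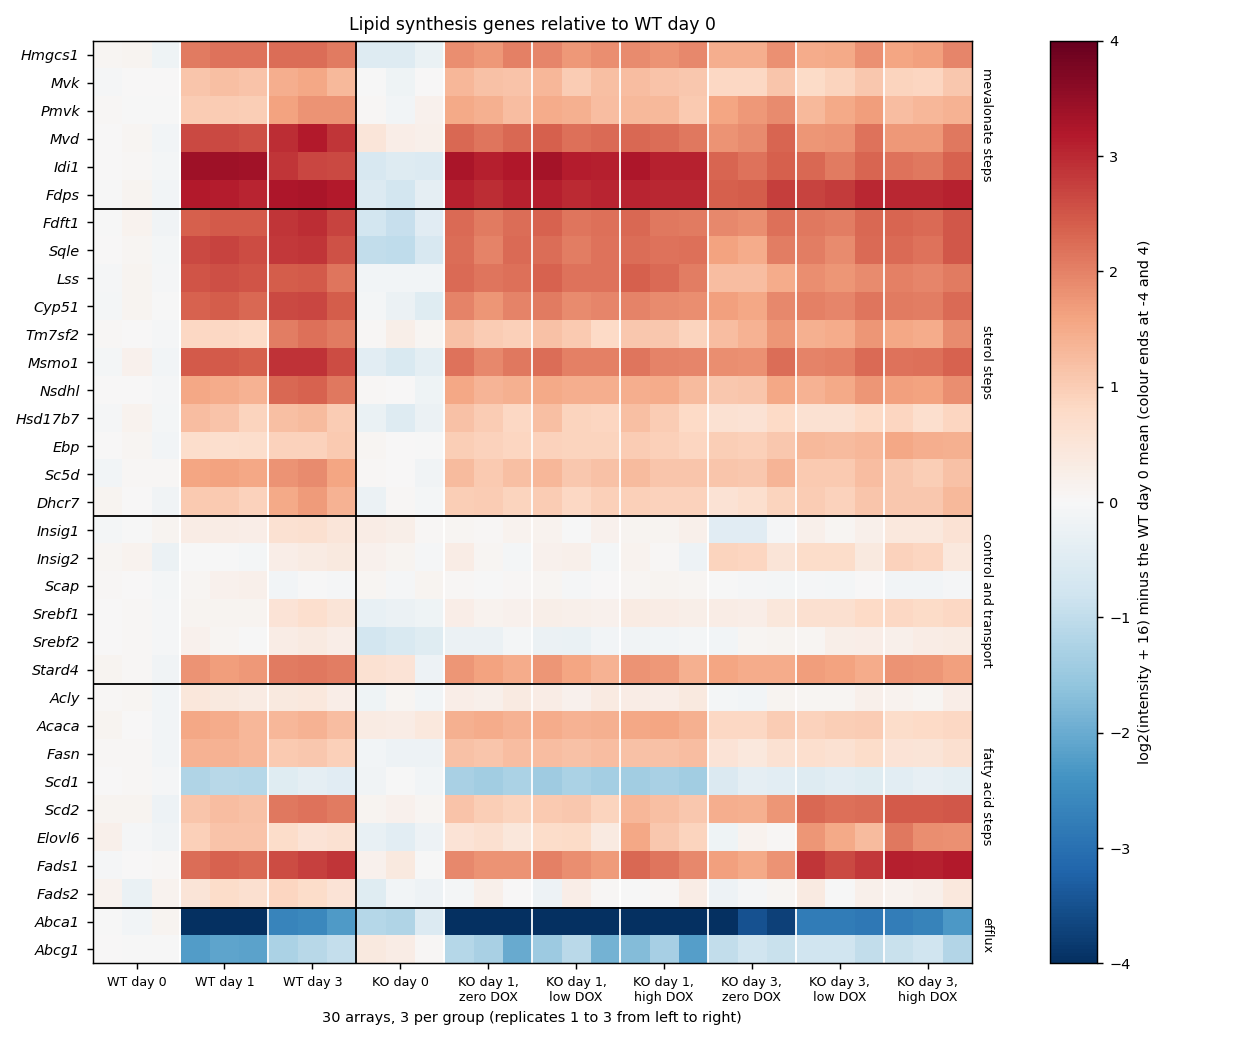
Heat map of 33 lipid synthesis genes (rows, grouped by role) on 30 arrays (columns, 10 groups of 3), coloured by log2(intensity + 16) minus the WT day 0 mean. Nearly all synthesis genes are red after stimulation in both genotypes, Abca1, Abcg1 and Scd1 are blue, and the rows of the sterol steps are paler in KO zero DOX than in WT at day 3.

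Promoter sequences are shown for 4 members that the results turn on: Hmgcs1, the only member whose window held the sterol regulatory element searched for; Idi1, which rose most among the mevalonate steps; Insig1, which moved with the DOX dose; and Elovl6, which rose most with DOX. Each is the RefSeq window of 250 bases before to 50 bases after the transcription start on assembly GRCm38.p6, in lower case, with capitals where a sterol regulatory element (TCACNCCAC) or a CCAAT box (CCAAT) was found on either strand. Hmgcs1 lies at chr13:119690101-119690400, Idi1 at chr13:8885356-8885655, Insig1 at chr5:28071162-28071461 and Elovl6 at chr3:129532136-129532435, all on the plus strand.
Hmgcs1: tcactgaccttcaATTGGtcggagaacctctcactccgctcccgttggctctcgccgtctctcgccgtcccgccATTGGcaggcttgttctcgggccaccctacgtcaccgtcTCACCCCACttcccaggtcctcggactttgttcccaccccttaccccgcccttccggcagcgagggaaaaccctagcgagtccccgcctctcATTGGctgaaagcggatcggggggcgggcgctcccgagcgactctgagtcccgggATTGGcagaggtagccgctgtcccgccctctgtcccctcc
Idi1: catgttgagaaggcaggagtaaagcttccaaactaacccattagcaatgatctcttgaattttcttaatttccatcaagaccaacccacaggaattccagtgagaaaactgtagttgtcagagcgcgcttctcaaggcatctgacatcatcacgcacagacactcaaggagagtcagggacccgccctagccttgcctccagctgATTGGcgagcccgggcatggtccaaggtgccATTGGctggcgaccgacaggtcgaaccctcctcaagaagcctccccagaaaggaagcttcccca
Insig1: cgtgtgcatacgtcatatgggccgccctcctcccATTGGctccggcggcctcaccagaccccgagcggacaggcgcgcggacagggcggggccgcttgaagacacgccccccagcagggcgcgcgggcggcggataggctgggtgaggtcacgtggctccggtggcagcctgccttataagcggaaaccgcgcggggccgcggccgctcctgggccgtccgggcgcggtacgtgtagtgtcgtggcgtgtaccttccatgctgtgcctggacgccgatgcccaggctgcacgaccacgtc
Elovl6: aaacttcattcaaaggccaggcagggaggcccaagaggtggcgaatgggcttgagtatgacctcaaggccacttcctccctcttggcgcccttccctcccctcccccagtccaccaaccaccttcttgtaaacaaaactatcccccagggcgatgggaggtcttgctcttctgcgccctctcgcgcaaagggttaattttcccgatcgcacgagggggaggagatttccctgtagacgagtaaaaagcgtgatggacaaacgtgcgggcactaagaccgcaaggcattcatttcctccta

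RefSeq windows matched 25 of the 33 genes, with 33 windows in all. The sterol regulatory element was found in 1 of these genes, Hmgcs1, with its first base 137 bases before the start, and in 1.44% of all 27025 genes with a window of this length. The CCAAT box, the site of the factor NF-Y, was found in 20 of the 25 genes and in 41.1% of all genes. By role it was found in 5 of 5 genes of the mevalonate steps, 9 of 9 of the sterol steps, 4 of 5 of control and transport, 2 of 5 of the fatty acid steps and 0 of 1 of efflux. The E-box CACGTG was found in 6 of the 25 genes, among them Insig1, against 8.09% of all genes. The 3 motifs were searched on both strands. No match of one motif overlapped a match of another in these windows, though CCAAT boxes on opposite strands share bases in Fasn. A match is a run of letters, not a measured site.

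After 1 day of stimulation the RNA of every measured member of the mevalonate and sterol steps was higher in WT B cells, and that of both sterol exporters was lower. Of the 33 genes 27 rose and 3 fell, with a median difference of 1.14, while 33.9% of all genes tested were called up and 47.6% called down, with a median of -0.15. All 6 genes of the mevalonate steps (median 2.39) and all 11 of the sterol steps (median 1.58) rose, and 7 of 8 fatty acid genes and 3 of 6 control genes did. The 2 efflux genes and Scd1 fell. All 30 calls held with each array left out in turn.

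Idi1, the isomerase that interconverts the isoprenoid building blocks of the pathway, read 9.77, 9.81 and 9.68 at day 0 and 13.15, 13.15 and 13.11 at day 1. The groups lay far apart, with a rise of 3.39 (SE 0.08, 10.5-fold, adjusted p = 1.28e-20). Sqle, the squalene epoxidase, read 9.14, 9.20 and 9.05 at day 0 and 11.78, 11.83 and 11.74 at day 1. It rose by 2.66 (SE 0.13, 6.30-fold, adjusted p = 1.81e-15). Among the control and transport genes Stard4, a carrier of cholesterol between membranes, rose by 1.73 (SE 0.14, adjusted p = 7.10e-11), from 9.62, 9.56 and 9.37 to 11.32, 11.17 and 11.26. The other rises of the mevalonate steps were 3.12 for Fdps, 2.63 for Mvd, 2.14 for Hmgcs1, 1.14 for Mvk and 1.01 for Pmvk. These genes encode, in this order, the farnesyl diphosphate synthase, the mevalonate diphosphate decarboxylase, the HMG-CoA synthase, the mevalonate kinase and the phosphomevalonate kinase. The other rises of the sterol steps ran from 0.69 for Ebp to 2.55 for Lss, which closes squalene epoxide into lanosterol.

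The regulators of the programme moved little at the RNA level on day 1. Insig1 rose by 0.28 and Scap by 0.15 in WT, and Srebf1 (0.12), Srebf2 (0.08) and Insig2 (-0.03) were not called. Srebf1 read 10.75, 10.78 and 10.71 at day 0 and 10.87 on all 3 arrays at day 1. Srebf1 and Srebf2 encode the SREBPs themselves, whose activity is set largely by the cutting of the protein, which arrays do not measure.

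Among the fatty acid genes Fads1, the delta-5 desaturase of long-chain polyunsaturated fatty acids, rose by 2.30 in WT (SE 0.10, 4.91-fold, adjusted p = 3.51e-16), from 6.63, 6.68 and 6.72 to 8.91, 9.03 and 8.97. A second probe set of Fads1 averaged 7.44 at day 0 and 7.55 at day 1 in WT. Acaca, the carboxylase that makes malonyl-CoA, rose by 1.45, and Fasn, the fatty acid synthase that uses it, rose by 1.37. Rises of Scd2 (1.17), Elovl6 (1.09), Fads2 (0.63) and Acly (0.40) were smaller on the probe sets used, while the other 2 probe sets of Fads2 rose by 2.52 and 2.61, more than Fads1. Scd1, a delta-9 desaturase like Scd2, went against its group. It read 13.74, 13.76 and 13.68 at day 0 and 12.53, 12.62 and 12.60 at day 1, a fall of 1.14 on the log2 scale (SE 0.06, 2.21-fold, adjusted p = 2.92e-15).

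Abca1, which loads cholesterol onto apolipoprotein A-I, read 11.99, 11.92 and 12.14 at day 0 and 7.59, 7.55 and 7.62 at day 1. This fall of 4.43 on the log2 scale (SE 0.15, 21.6-fold, adjusted p = 3.99e-18) was the largest day 1 change of any member in WT. Abcg1, which exports sterol to high-density lipoprotein, fell by 2.16, from 11.68, 11.65 and 11.65 to 9.43, 9.55 and 9.53.

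In KO cells without DOX the same roles moved in the same directions on the first day. There too 27 of the 33 genes rose and 3 fell, with a median of 1.20, while 39.8% of all genes tested were called up and 30.1% called down. Without the 2 arrays that went against their labels 29 of the 33 were called, in place of 30. Idi1 rose by 3.76 (SE 0.08, 13.5-fold, adjusted p = 2.82e-21), Sqle by 3.05 (SE 0.13, adjusted p = 1.56e-16), Stard4 by 1.31 (SE 0.14, adjusted p = 1.20e-08) and Fads1 by 1.65 (SE 0.10, adjusted p = 2.08e-13). Idi1 read 9.10, 9.24 and 9.21 at day 0 and 13.02, 12.87 and 12.94 at day 1 on the KO arrays. Scd1 fell by 1.24 on the log2 scale (SE 0.06, adjusted p = 7.15e-16). Abca1 fell by 3.86 (SE 0.15, adjusted p = 5.27e-17), from 10.88, 10.80 and 11.47 to 7.22, 7.28 and 7.09. Srebf1 rose by 0.41 and Srebf2 by 0.42 in KO. On the same day all 20 genes of a cell division list rose in both genotypes, with medians of 2.21 in WT and 1.94 in KO. In WT 10 of 16 myeloid, 5 of 5 T cell, 4 of 5 NK, 4 of 5 B cell and 5 of 6 plasma cell markers fell. In KO 9 of 16 myeloid, 4 of 5 T cell, 5 of 5 NK, 2 of 5 B cell and 2 of 6 plasma cell markers fell. In each genotype 1 myeloid, 1 B cell and 1 plasma cell marker rose. The part of these lists in the changes was not tested.

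The change from day 0 to day 1 differed between genotypes for 14 members, 8 with a higher and 6 with a lower difference in KO than in WT. Over all genes 32.4% were called higher and 11.5% lower, with a median of 0.13, and once each array was centred on its own median the 14 calls became 0 higher and 11 lower. With quantile normalization 7 were higher and 6 lower. Among the members lower in KO, Mvd differed by -0.70 (SE 0.18, adjusted p = 0.00306), which held under centring and with each array left out. Fads1 differed by -0.65 (SE 0.14, adjusted p = 0.000932), but its call ended with the mean of its probe sets. Acaca differed by -0.37, and its call held under centring and with each array left out. Sc5d differed by -0.38 (SE 0.13, adjusted p = 0.0198), a call that ended without KO day 0 replicate 1 (-0.34), KO zero DOX day 1 replicate 2 (-0.31) or WT day 0 replicate 1 (-0.33). Insig1 differed by -0.37 (SE 0.12, adjusted p = 0.0178), and this ended without KO day 0 replicate 1 (-0.31). Of the higher ones, Fdps (0.47, SE 0.13, adjusted p = 0.00657), Fdft1 (0.47, SE 0.15, adjusted p = 0.0167), Srebf2 (0.34, SE 0.10, adjusted p = 0.00809) and Abca1 (0.57, SE 0.21, adjusted p = 0.0309) all lost their calls under centring. The call of Fdft1 also ended without replicate 2 of KO or WT day 0 (0.36 to 0.59). That of Abca1 ended without any 1 of 6 arrays (0.45 to 0.78): KO day 0 and KO zero DOX day 1 replicates 1 and 2, WT day 0 replicate 3 and WT day 1 replicate 2. With the replicate number as a block within each genotype, the higher difference of Pmvk (0.35) missed the threshold, at adjusted p = 0.0579, and those of Sqle (0.40) and Stard4 (-0.43) passed it. Without the 2 arrays that went against their labels 10 members were called. By the same term 4 of 6 plasma cell and 3 of 5 T cell markers were higher in KO, and 11 of 20 cell division genes, 4 of 16 myeloid and 2 of 5 NK markers were lower, and their part in the result was not tested.

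**Figure D2:**
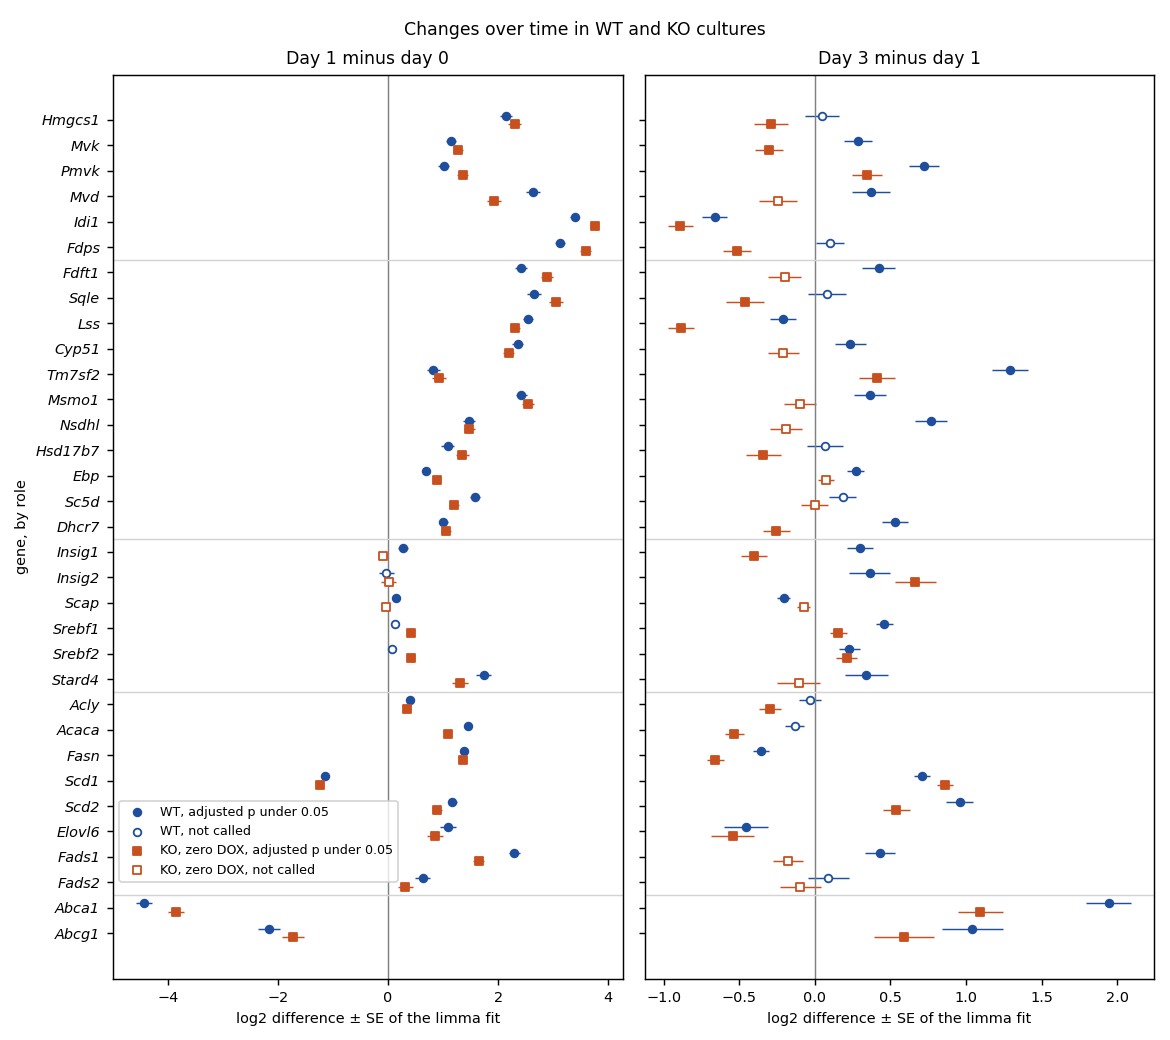
Log2 differences of 33 genes between day 1 and day 0 (left) and between day 3 and day 1 (right) in WT (circles) and KO zero DOX (squares), with bars of 1 SE of the limma fit and filled symbols at adjusted p under 0.05. On the left both genotypes lie close together for most genes, and on the right the KO symbols lie to the left of the WT symbols for 30 of 33 genes.

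From day 1 to day 3 more members rose than fell in WT, and more fell than rose in KO. In WT 20 of the 33 genes rose and 5 fell (median 0.28), against 43.3% of all genes called up and 26.2% called down (median 0.12). With arrays centred on their medians 13 rose and 6 fell. In KO zero DOX 9 rose and 13 fell (median -0.19), against 25.9% of all genes called up and 26.7% called down. Without the 2 arrays that went against their labels 20 members were called in KO, in place of 22. In the same interval 5 of 6 plasma cell markers rose in WT (median 1.41), with 3 of 5 NK and 4 of 5 B cell markers. In KO 5 of 5 NK, 6 of 16 myeloid and 5 of 5 B cell markers rose, and 1 of 6 plasma cell markers rose and 1 fell. Of 20 cell division genes 10 fell in WT and 9 in KO. Their part in these changes was not tested.

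Among the sterol steps of WT 7 of 11 genes rose, led by Tm7sf2, a sterol reductase, at 1.29 (SE 0.12, 2.45-fold, adjusted p = 1.53e-09), from 8.31, 8.32 and 8.31 to 9.54, 9.71 and 9.56. Nsdhl, which removes methyl groups from the sterol ring, rose by 0.77, and Dhcr7, which makes the last reduction to cholesterol, by 0.53. Pmvk rose by 0.72 (SE 0.10, adjusted p = 8.26e-07), while Idi1 fell by 0.66 on the log2 scale (SE 0.08, adjusted p = 1.91e-07) from its day 1 peak to 12.60, 12.44 and 12.40. Lss fell by 0.21 (SE 0.09, adjusted p = 0.0343), a call that ended without any 1 of 4 arrays and turned to a rise of 0.10 with the mean of its probe sets. Those arrays were WT day 1 replicates 1, 2 and 3 and WT day 3 replicate 3, and the fall was between 0.27 and 0.11 with 1 array left out.

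In KO zero DOX over the same days 1 of 11 genes of the sterol steps rose and 4 fell. Lss fell by 0.89 on the log2 scale (SE 0.09, 1.85-fold, adjusted p = 5.95e-09), from 10.42, 10.30 and 10.35 to 9.38, 9.39 and 9.64, with no overlap. Tm7sf2 went against its group with a rise of 0.41 (SE 0.12, adjusted p = 0.00511), which was 0.27 and no longer called without KO zero DOX day 3 replicate 3. Idi1 fell by 0.89 (SE 0.08, adjusted p = 2.47e-09) and Pmvk rose by 0.35 (SE 0.10, adjusted p = 0.00467). Fdps fell by 0.52, Sqle by 0.46, Mvk by 0.30 and Hmgcs1 by 0.29. Fdft1 (-0.20) was called with the replicate number as a block within each genotype (adjusted p = 0.0406).

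Control genes parted in the same interval. Srebf1 rose by 0.46 in WT (SE 0.06, adjusted p = 1.95e-07). In KO it rose by 0.15, a call that ended without KO zero DOX day 1 replicate 2 or 3 or day 3 replicate 3. Scap fell by 0.21 in WT (SE 0.05, adjusted p = 0.000314). Insig1, both a target and a brake of SREBP, read 12.18, 12.19 and 12.15 at day 1 and 12.50, 12.53 and 12.38 at day 3 in WT, and 11.96, 11.96 and 12.05 and then 11.45, 11.45 and 11.85 in KO. The WT level rose by 0.30 (adjusted p = 0.00361) and the KO level fell by 0.40 (SE 0.09, adjusted p = 0.000321), and in KO the day 3 arrays lay below those of day 0 (12.19, 12.12 and 11.93). Insig2, the second INSIG protein, rose by 0.66 in KO (SE 0.13, adjusted p = 0.000200) and by 0.36 in WT, where the call ended without replicate 3 of day 1 or day 3.

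Fatty acid genes split by step. Scd2 rose by 0.96 in WT (SE 0.09, adjusted p = 1.83e-09) to 13.42, 13.47 and 13.38, and by 0.54 in KO to 12.76, 12.71 and 13.06. Scd1 rose in both genotypes, by 0.71 in WT and by 0.86 in KO (SE 0.06, adjusted p = 7.92e-12), and all its day 3 arrays read below those of day 0. Fasn fell in both, by 0.36 in WT and by 0.66 in KO (SE 0.06, adjusted p = 6.14e-10), and so did Elovl6, by 0.46 (SE 0.14, adjusted p = 0.00726) and 0.54. Abca1 rose by 1.94 in WT (SE 0.15, adjusted p = 6.63e-11) to 9.39, 9.44 and 9.77, and by 1.09 in KO (SE 0.15, adjusted p = 1.12e-06) to 8.03, 8.54 and 8.30.

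The test of this parting itself, the genotype-by-time term for day 3 against day 1, called 19 members, each with the lower difference in KO (1 member was higher at an unadjusted p under 0.05). Over all genes 20.2% were called lower and 9% higher, with medians of -0.42 for the members and -0.07 for all genes. With arrays centred on their medians 11 members were lower and 2 higher, a shift of 0.15 in the median of all genes. The 19 were 4 of 6 genes of the mevalonate steps, 8 of 11 of the sterol steps, 2 of 6 of control and transport, 4 of 8 fatty acid genes and 1 of 2 efflux genes. Within roles the lowest were Nsdhl at -0.96 (SE 0.15, adjusted p = 0.000114), Fdps at -0.61 (SE 0.13, adjusted p = 0.00179), Insig1 at -0.70 (SE 0.12, adjusted p = 0.000275), Fads1 at -0.61 (SE 0.14, adjusted p = 0.00296) and Abca1 at -0.85 (SE 0.21, adjusted p = 0.00486). All 5 held with each array left out and under each alternative. Leaving out the 2 arrays that went against their labels gave 19 calls again. By the same term 5 of 6 plasma cell markers (median -1.13) and 2 of 5 T cell markers were lower in KO and 2 of 5 NK markers higher, and their part in the result was not tested. With the replicate number as a block within each genotype, that of Pmvk (-0.37) missed the threshold, at adjusted p = 0.0535, and those of Acly (-0.26), Ebp (-0.20), Hmgcs1 (-0.34), Hsd17b7 (-0.41), Stard4 (-0.45) and Insig2 (0.30) passed it.

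Before stimulation part of the pathway was lower in KO B cells. In all, 12 of the 33 genes were lower and 1 was higher than in WT at day 0, against 18.4% of all genes called down and 13.1% called up, and with arrays centred on their medians 9 were lower and 3 higher. Sqle read 9.14, 9.20 and 9.05 in WT and 8.13, 8.11 and 8.49 in KO, a difference of -0.89 (SE 0.13, 1.85-fold, adjusted p = 1.30e-05). Idi1 differed by -0.57 (SE 0.08, adjusted p = 1.61e-05), Fdft1 by -0.70 and Fdps by -0.54. Srebf2, the SREBP that acts mainly on cholesterol genes, read 11.30, 11.31 and 11.22 in WT and 10.54, 10.66 and 10.80 in KO, a difference of -0.61 (SE 0.07, adjusted p = 9.09e-07). Srebf1 was lower by 0.23 and Abca1 by 0.97 (SE 0.15, adjusted p = 3.20e-05).

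Fatty acid genes went both ways at day 0. Acaca was the member called higher, at 9.70, 9.68 and 9.79 in KO against 9.47, 9.39 and 9.27 in WT (0.35, SE 0.06, adjusted p = 0.000273). Fasn was lower by 0.18 (SE 0.06, adjusted p = 0.0154), a call that ended under centring and without KO day 0 replicate 2, WT day 0 replicate 1 or WT day 0 replicate 2, where the difference was between -0.23 and -0.16 with 1 array left out. On these arrays 14 of 16 myeloid, 4 of 5 NK cell and 2 of 5 T cell marker genes were higher in KO, and 4 of 6 plasma cell markers were lower. Of 20 cell division genes 15 were higher (median 0.33). The part of these lists in the result was not tested. KO replicate 3, of the same female pattern as the WT arrays, lay below all 3 WT arrays for 12 of the 12 lower genes. These genes were picked by a fit that includes this array, so the count is not an independent check.

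At day 1 lower levels in KO were again more frequent than higher ones. Of the 33 genes 16 were lower and 3 higher in KO zero DOX than in WT, against 15.7% of all genes called down and 33.9% called up. Sqle was lower by 0.49 (SE 0.13, adjusted p = 0.00261), at 11.36, 11.13 and 11.40 against 11.78, 11.83 and 11.74. Fads2, the delta-6 desaturase, was lower by 0.59 (SE 0.14, adjusted p = 0.00112), and Srebf2 by 0.26 (SE 0.07, adjusted p = 0.00349), whose call ended with the mean of its probe sets. The 3 higher genes were Pmvk at 0.38 (SE 0.10, adjusted p = 0.00295), Ebp at 0.23 (SE 0.05, adjusted p = 0.00105) and Abcg1 at 0.67 (SE 0.20, adjusted p = 0.00801). The call of Ebp, the sterol isomerase, ended under centring, and Abcg1 was at 0.50 and not called without KO zero DOX day 1 replicate 1. Its KO levels of 10.52 and 10.37 came from the arrays of male pattern. KO replicate 3, of female pattern, read 9.65, against 9.43, 9.55 and 9.53 in WT.

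Some day 1 calls rested on single arrays. Mvd was lower by 0.38 (SE 0.13, adjusted p = 0.0142), which ended without KO zero DOX day 1 replicate 2, an array that went against its label. Its difference was -0.41 to -0.33 over the arrays left out. Abca1 was lower by 0.39 (SE 0.15, adjusted p = 0.0318), a call that ended without any 1 of 5 arrays: KO zero DOX day 1 replicates 1 and 3 and WT day 1 replicates 1, 2 and 3. Its difference then ran from -0.44 to -0.34. Without both arrays that went against their labels 13 members were called, in place of 19. In this day 1 comparison 15 of 16 myeloid, 5 of 5 T cell and 3 of 5 NK markers were higher in KO. Of 6 plasma cell markers 3 were lower and 1 higher. Irf4, 1 of these 6, read 12.20, 11.96 and 11.99 in KO zero DOX and 11.76, 11.66 and 11.74 in WT. Summed myeloid intensities were 6788 to 9028 in KO and 2531 to 2887 in WT. Their part in the result was not tested.

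By day 3 most of the pathway was lower in KO zero DOX than in WT. Of the 33 genes 27 were lower in KO zero DOX than in WT and 1 was higher, against 15.8% of all genes called down and 19% called up, with medians of -0.59 for the members and 0.00 for all genes. The lower genes were 5 of 6 of the mevalonate steps, 10 of 11 of the sterol steps, 4 of 6 of control and transport, 7 of 8 fatty acid genes and 1 of 2 efflux genes. All 27 lay below WT on every array, as did 20.9% of all genes tested, and 25 of the 28 calls held both with each array left out and under each alternative.

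Sqle read 11.94, 11.99 and 11.66 in WT and 10.73, 10.60 and 11.16 in KO zero DOX, a difference of -1.03 (SE 0.13, 2.05-fold, adjusted p = 7.82e-07). Mvd read 10.80, 11.01 and 10.70 in WT and 9.64, 9.72 and 10.16 in KO, 2.00-fold lower (log2 SE 0.13, adjusted p = 1.25e-06). KO replicate 3 was the highest of the KO arrays in both genes and still below every WT array. Over all members it was the highest KO array for 26 of 33 genes and lay below all 3 WT arrays for 27 of the 27 lower genes. The 27 were picked by a fit that includes this array, so that count is not an independent check. The other lower genes of both sets of steps ran from -1.02 for Lss and -0.99 for Nsdhl to -0.42 for Idi1. Between them lay Cyp51 (-0.88), the lanosterol demethylase, Fdft1 (-0.85), the squalene synthase, Dhcr7 (-0.83), Msmo1 (-0.82), Fdps (-0.69), Tm7sf2 (-0.64), Hmgcs1 (-0.62), Sc5d (-0.59), Mvk (-0.51) and Hsd17b7 (-0.49). Pmvk (0.00) and Ebp (0.04) went against the rest and were not called.

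Insig1 was lower by 0.89 (SE 0.09, 1.85-fold, adjusted p = 2.89e-08), Stard4 by 0.56, Srebf2 by 0.28 and Srebf1 by 0.24, and Scap was not called. Insig2 was the member called higher, at 0.43 (SE 0.13, adjusted p = 0.0155), and this ended without KO zero DOX day 3 replicate 1 or 2 or WT day 3 replicate 1, with values between 0.37 and 0.55. Its KO levels of 10.40 and 10.39 came from the arrays of male pattern, while replicate 3 read 10.04, against 9.78, 9.85 and 9.90 in WT. Fads1 read 9.28, 9.40 and 9.52 in WT and 8.32, 8.19 and 8.47 in KO, lower by 1.07 (SE 0.10, 2.10-fold, adjusted p = 1.39e-08). Fads2 (-0.78), Elovl6 (-0.64), Scd2 (-0.58), Fasn (-0.50), Acaca (-0.42) and Acly (-0.38), the citrate lyase that supplies acetyl-CoA, were lower as well. Scd1 was at -0.02. Abca1 was lower by 1.24 (SE 0.15, 2.37-fold, adjusted p = 6.53e-07), and Abcg1 at 0.22 was not called.

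Other cells and states moved with this contrast. On the same arrays 13 of 16 myeloid, 5 of 5 NK and 3 of 5 T cell markers were higher in KO, and 5 of 6 plasma cell markers were lower, with summed plasma cell intensities of 9242 to 10451 in KO against 26113 to 27041 in WT. NK cell sums were 4979 to 9436 in KO and 1479 to 2171 in WT. Their part in the result was not tested. Of the 20 cell division genes 0 rose and 3 fell.

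With Irf4 induced by DOX, part of the pathway was higher at day 3. At high DOX 17 of the 33 genes were higher than at zero DOX and 1 was lower, against 24.4% of all genes called up and 24.2% called down, and 15 of the 17 lay above zero DOX on every array, as did 27.2% of all genes tested. At low DOX 14 were higher and none lower by limma (1 was lower at an unadjusted p under 0.05), against 17.6% and 18.2%. This count was 9 to 15 with an array left out, 9 without zero DOX replicate 2, and 8 with the groups of the comparison only. Both comparisons share the zero DOX arrays, so their values are given side by side.

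**Figure D3:**
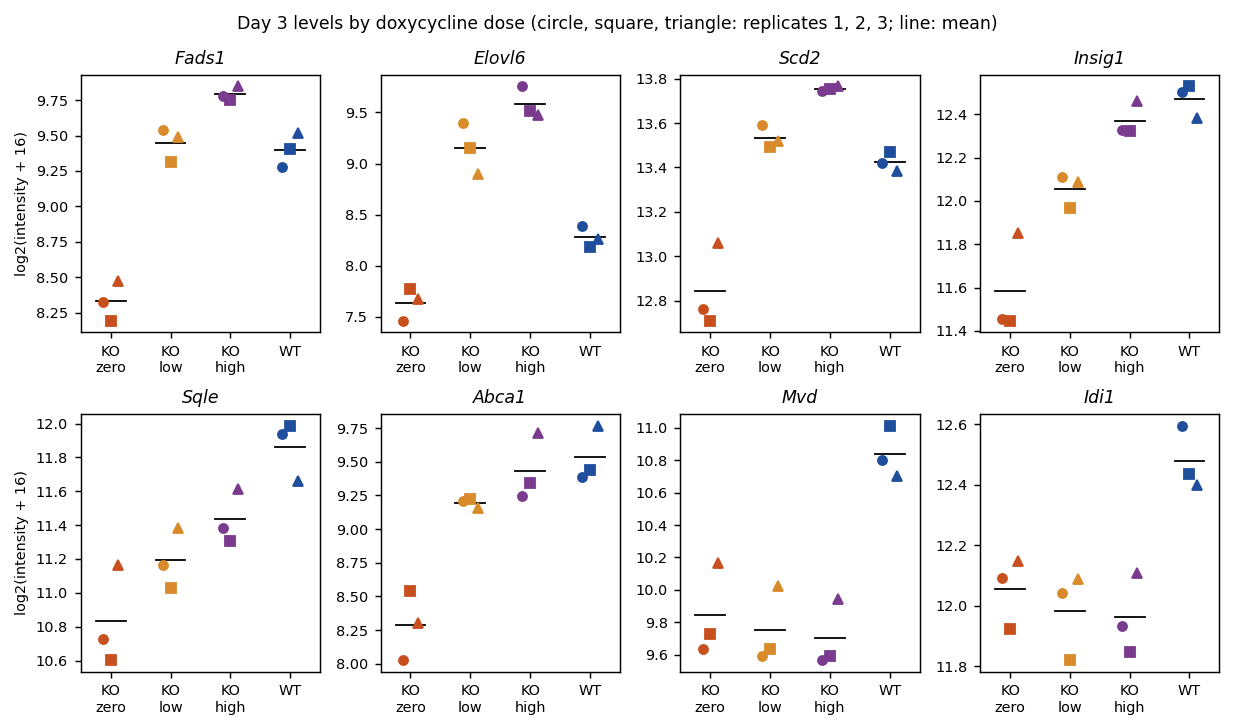
Levels of 8 genes, log2(intensity + 16), on the 3 arrays each of KO zero, low and high DOX and WT at day 3 (circle, square and triangle for replicates 1, 2 and 3, line for the mean; each panel has its own axis, which does not start at 0). Fads1, Elovl6, Scd2, Insig1, Sqle and Abca1 are higher with DOX, while Mvd and Idi1 are level with zero DOX and below WT.

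On the probe sets used, Elovl6 and Fads1 had the largest rises at both doses. Elovl6, the elongase that lengthens palmitate, read 7.46, 7.77 and 7.68 at zero, 9.40, 9.15 and 8.90 at low and 9.76, 9.52 and 9.47 at high DOX. It rose by 1.51 at low (SE 0.14, 2.85-fold, adjusted p = 2.64e-08) and by 1.94 at high DOX (SE 0.14, 3.85-fold, adjusted p = 9.33e-11). Another probe set of Elovl6 averaged 6.96, 8.62 and 9.10 at zero, low and high DOX, and a further set 7.89, 8.12 and 8.18. Fads1 read 8.32, 8.19 and 8.47, then 9.54, 9.32 and 9.49, then 9.78, 9.75 and 9.85, with rises of 1.12 and 1.46. Its second probe set averaged 7.64, 7.81 and 7.97 at zero, low and high DOX. Scd2 read 12.76, 12.71 and 13.06, then 13.59, 13.49 and 13.52, then 13.74, 13.75 and 13.77, with rises of 0.69 and 0.91. On the probe sets used these 3 genes lay above zero DOX on every array at both doses. Of all genes tested 21.5% did so at low DOX and 27.2% at high DOX. Acaca (0.07 and -0.11) was not called at either dose, and neither was Scd1 (-0.02 and 0.08) nor Fads2 (0.25 and 0.32) on the probe sets used. However, 2 other probe sets of Fads2 rose by 1.57 and 1.80 at high DOX. Those sets averaged 8.19 and 7.21 at zero and 9.42 and 8.54 at low DOX. With the replicate number as a block within each genotype the Fads2 set used was called at high DOX (adjusted p = 0.0407). Small calls of Fasn at low DOX (0.14) and of Acly at high DOX (0.19) ended without any 1 of 4 arrays: replicates 1 and 2 of zero DOX and replicates 1 and 3 of the dose.

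Of the sterol steps 8 of 11 genes rose at high DOX and 6 at low DOX. Lss read 9.38, 9.39 and 9.64 at zero, 10.01, 9.90 and 10.05 at low and 10.18, 10.11 and 10.23 at high DOX, rises of 0.52 (SE 0.09, adjusted p = 5.35e-05) and 0.70 (SE 0.09, 1.63-fold, adjusted p = 3.09e-07). Sqle rose by 0.36 and 0.60, Ebp by 0.30 and 0.48, Nsdhl by 0.30 and 0.44, Dhcr7 by 0.30 and 0.44 and Cyp51 by 0.33 and 0.42. The low DOX calls of Sqle, Cyp51, Nsdhl and Dhcr7 ended without 1 or more of zero DOX replicates 1 and 2 and low DOX replicates 1 and 3. Fdft1 (0.36) and Msmo1 (0.27) were called at high DOX, and these ended without zero DOX replicate 2 or high DOX replicate 3, that of Msmo1 also without zero DOX replicate 1 or high DOX replicate 2. Hsd17b7 (0.14), Tm7sf2 (0.17) and Sc5d (-0.10) were not called at high DOX.

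Of the mevalonate steps 1 of 6 genes was higher and 1 lower at high DOX, and the other 4 were not called. Fdps rose by 0.50 (SE 0.09, adjusted p = 8.15e-05), at 11.86, 11.89 and 12.23 at zero and 12.46, 12.48 and 12.54 at high DOX. At low DOX it rose by 0.31 (SE 0.09, adjusted p = 0.0101), and this ended without KO low DOX day 3 replicate 3 or KO zero DOX day 3 replicate 1 or 2, with values between 0.22 and 0.43. Pmvk fell by 0.41 on the log2 scale at high DOX (SE 0.10, 1.33-fold, adjusted p = 0.00111), from 10.66, 10.81 and 10.95 to 10.30, 10.41 and 10.47. Hmgcs1 (0.14), Mvk (0.02), Idi1 (-0.09) and Mvd (-0.14) were not called.

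Insig1 rose by 0.47 at low (SE 0.09, adjusted p = 0.000154) and 0.79 at high DOX (SE 0.09, 1.72-fold, adjusted p = 5.41e-08), reading 12.11, 11.97 and 12.09 and then 12.33, 12.32 and 12.46. Srebf1 rose by 0.34 and 0.46, and Srebf2 by 0.25 at high DOX. With the replicate number as a block within each genotype Srebf2 was called at low DOX too (0.17, adjusted p = 0.00533). Abca1 read 8.03, 8.54 and 8.30 at zero, 9.21, 9.22 and 9.16 at low and 9.25, 9.34 and 9.71 at high DOX, rises of 0.91 (SE 0.15, adjusted p = 4.73e-05) and 1.14 (SE 0.15, 2.21-fold, adjusted p = 7.66e-07), while Abcg1 (-0.06 at high DOX) was not called. Synthesis genes and the exporter Abca1 thus rose on the same arrays.

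Marker levels moved with the dose too. At high against zero DOX 5 of 6 plasma cell markers and 10 of 20 cell division genes rose. In the same comparison 13 of 16 myeloid, 5 of 5 NK, 3 of 5 T cell and 5 of 5 B cell markers fell. Summed myeloid intensities were 10008 to 18913 at zero, 4440 to 7462 at low and 2643 to 3413 at high DOX, and summed plasma cell intensities were 9242 to 10451, 20596 to 26984 and 29437 to 32770. Their part in the result was not tested.

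Between low and high DOX 4 members were called higher and none lower by limma (1 was lower at an unadjusted p under 0.05), against 6.69% of all genes called up and 6.09% called down. These were Elovl6 (0.43, SE 0.14, adjusted p = 0.0477), Fads1 (0.34, SE 0.10, adjusted p = 0.0222), Insig1 (0.31, SE 0.09, adjusted p = 0.0154) and Ebp (0.18, SE 0.05, adjusted p = 0.0288). All 4 calls ended when an array was left out, over ranges of 0.31 to 0.56, 0.28 to 0.39, 0.27 to 0.34 and 0.14 to 0.20. Of the 6 arrays, KO low DOX replicate 2 ended all 4 calls. KO high DOX replicate 3 ended those of Elovl6, Fads1 and Insig1, and replicate 1 those of Elovl6, Fads1 and Ebp. KO low DOX replicate 3 and KO high DOX replicate 2 ended those of Elovl6 and Ebp, and KO low DOX replicate 1 that of Ebp. With arrays centred on their medians 1 member was higher and 1 lower. With the replicate number as a block within each genotype Sqle (0.24, adjusted p = 0.0377) and Acaca (-0.19, adjusted p = 0.0250) were called as well. Between these doses 4 of 6 plasma cell markers rose, and 5 of 5 NK, 4 of 5 B cell, 5 of 16 myeloid and 2 of 5 T cell markers fell, and their part in the result was not tested.

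At day 1 the DOX dose went with few calls. Elovl6 alone of the 33 genes was called at high against zero DOX, and none fell by limma (at an unadjusted p under 0.05, 3 were higher and 0 lower), against 1.26% of all genes called up and 1.49% called down. It read 8.18, 8.27 and 8.09 at zero and 9.19, 8.73 and 8.55 at high DOX, with the replicate 1 array highest, a rise of 0.64 (SE 0.14, 1.56-fold, adjusted p = 0.0148). The call ended without KO high DOX day 1 replicate 1 (0.46), KO zero DOX day 1 replicate 1 (0.64) or replicate 3 (0.60). It held without both arrays that went against their labels (0.69). In this comparison 4 of 16 myeloid markers fell and 1 of 6 plasma cell markers rose, and their part in the result was not tested.

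At high DOX on day 1, compared with the same WT arrays as zero DOX, sterol genes were again among those lower than in WT. In all, 11 of 33 genes were lower and 2 higher than in WT, against 9.76% of all genes called down and 29.6% called up, and with arrays centred on their medians 19 were lower and none higher. Sqle was lower by 0.45 (SE 0.13, adjusted p = 0.00655), Mvd by 0.41 (SE 0.13, adjusted p = 0.0116) and Fads2 by 0.52 (SE 0.14, adjusted p = 0.00458). Srebf2 was lower by 0.20 (SE 0.07, adjusted p = 0.0284), which ended without KO high DOX day 1 or WT day 1 replicates 1 or 2, between -0.25 and -0.15. Ebp was higher by 0.26 (SE 0.05, adjusted p = 0.000676) and Srebf1 by 0.18 (SE 0.06, adjusted p = 0.0159), and both lost their calls under centring. That of Srebf1 also ended without KO high DOX day 1 replicate 1 or 2, between 0.16 and 0.20. On these arrays 9 of 16 myeloid and 5 of 5 T cell markers were higher in KO and 2 of 6 plasma cell markers lower, and their part in the result was not tested.

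**Figure D4:**
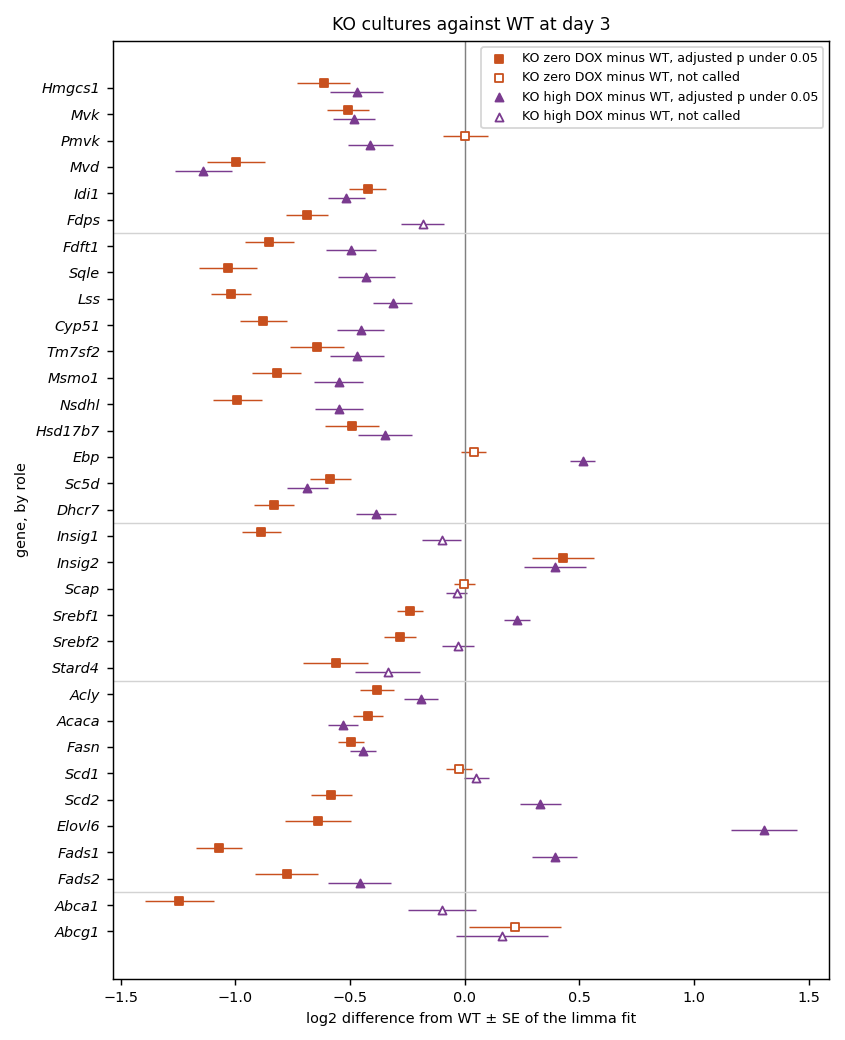
Log2 differences from WT at day 3 of 33 genes in KO zero DOX (squares) and KO high DOX (triangles), with bars of 1 SE of the limma fit and filled symbols at adjusted p under 0.05. Mvd, Idi1, Sc5d and Acaca lie at least as far below WT at high as at zero DOX, while Elovl6, Fads1, Scd2 and Ebp lie above WT at high DOX.

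At day 3 with high DOX the members fell into 3 kinds relative to WT. Of the 33 genes 19 were lower, 6 higher and 8 not called, against 19% of all genes called down and 22.1% called up, with a median of -0.35 for the members and 0.01 for all genes. Both day 3 comparisons with WT share the WT arrays. The 5 lower mevalonate genes were led by Mvd, at 9.57, 9.59 and 9.94 against 10.80, 11.01 and 10.70 in WT, a difference of -1.14 (SE 0.13, 2.20-fold, adjusted p = 1.11e-07). Of the sterol steps 10 were lower, led by Sc5d, a late desaturase of the sterol ring, at -0.69 (SE 0.09, 1.61-fold, adjusted p = 1.28e-06), with 11.25, 11.16 and 11.35 against 11.99, 12.06 and 11.77. Acaca (-0.53, SE 0.06, adjusted p = 5.06e-07) and Fasn (-0.44), which together build the fatty acid chain, were lower as well.

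The 6 genes higher than in WT were Elovl6, Ebp, Insig2, Fads1, Scd2 and Srebf1. Elovl6 read 9.76, 9.52 and 9.47 against 8.39, 8.18 and 8.26 in WT, higher by 1.30 (SE 0.14, 2.47-fold, adjusted p = 1.11e-07). Ebp went against the other sterol genes, at 11.87, 11.77 and 11.75 against 11.23, 11.24 and 11.38 (0.51, SE 0.05, adjusted p = 4.91e-08). Fads1 was higher by 0.39, Scd2 by 0.33 and Srebf1 by 0.23. The call of Insig2 (0.40, SE 0.13, adjusted p = 0.0211) ended with a term for sex and without KO high DOX day 3 replicate 1 or 2 or WT day 3 replicate 1, with values between 0.30 and 0.55. Fdps (-0.18), Insig1 (-0.10), Srebf2 (-0.03), Stard4 (-0.34), Scap (-0.03), Scd1 (0.05), Abca1 (-0.10) and Abcg1 (0.16) were not called. On these arrays 5 of 6 plasma cell markers, 3 of 5 T cell markers and 4 of 20 cell division genes were higher than in WT. Lower were 4 of 5 B cell markers, and 1 of 16 myeloid markers was higher and 1 lower. Their part in the result was not tested.

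Across all 10 groups 17 of the 33 members had their highest mean in WT at day 3, 5 in WT at day 1 and 5 in KO high DOX at day 3. The last 5 were Ebp, Srebf1, Scd2, Elovl6 and Fads1. Abca1 and Scd1 were highest in unstimulated WT cells and Abcg1 in unstimulated KO cells.

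Of 36 other genes of lipid metabolism 29 were tested. At day 1 in WT 12 rose and 14 fell, against 33.9% and 47.6% of all genes, and in KO 13 rose and 9 fell, against 39.8% and 30.1%. Those that rose at least 2-fold in both were Elovl1 (1.48 and 1.41), a fatty acid elongase, Slc25a1 (1.40 and 1.49), the mitochondrial citrate carrier, Acsl3 (1.23 and 1.76) and Acsl4 (1.25 and 1.15), which activate fatty acids, and Dhdds (1.19 and 1.27), which makes dolichol. Mylip, the liver X receptor target that degrades the low-density lipoprotein receptor, fell by 1.45 on the log2 scale in WT. From day 1 to day 3 in WT 14 rose and 8 fell, against 43.3% and 26.2% of all genes. Npc2 (1.30), a lysosomal cholesterol carrier, was among those that rose. In KO over the same days 9 rose, among them Mylip (1.05), and 9 fell, against 25.9% and 26.7%.

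At day 3, 5 of these genes were higher and 10 lower in KO zero DOX than in WT. Over all genes 19% were called up and 15.8% called down. Acsl3, among the 10, was lower by 1.15. With high DOX 15 rose and 3 fell relative to zero DOX, beside 24.4% and 24.2% of all genes. With low DOX 11 rose and 3 fell, beside 17.6% and 18.2%. Erlin1, which takes part in the breakdown of endoplasmic reticulum proteins of sterol control, rose by 1.51 at high DOX (SE 0.07, adjusted p = 7.76e-14) and by 1.07 at low DOX, and was higher than in WT by 1.49 at high DOX.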

How the data were processed

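The deposited values are linear intensities, made by the authors with D-Chip from perfect-match probes alone, per the series design text. MAS5 is named in the submitters' processing notes without a role. Array medians were 171.38 to 199.67 and no array was rescaled. Levels are log2(intensity + 16). A probe set was kept if above the table median of 188.245 on at least 3 arrays, and each gene was represented by its single-symbol probe set of highest mean. limma 3.58.1 in R 4.3.3 fitted 1 mean per group over all 30 arrays (20 residual degrees of freedom), with Benjamini-Hochberg adjustment over 12183 genes at 0.05. The number of arrays limits the precision, and an exact permutation test of 3 against 3 cannot go below 0.1. The fit was tested on simulated data.

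The members and lists were chosen with earlier results of these data known. Members are named, within each role and comparison, as the called genes with the largest difference up and down, with members that go against their role, and others are given by value or range. Other pathway genes are named at 2-fold. The replicate numbers paired KO arrays, by the data: same-numbered KO arrays deviated together from their group means in 63 of 63 pairs (lowest correlation 0.30), against 6 of 63 pairs of KO with WT and 5 of 9 pairs within WT over 0.1. The alternatives were quantile normalization, centring, other pseudocounts, filters and probe set rules, array weights, a sex term, blocks and single arrays left out. Promoter windows came from RefSeq, assembly GRCm38.p6.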

Additional observations from a re-analysis of the deposited data

Results flagged for a closer look

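The change over time differed between KO zero DOX and WT, by the genotype-by-time test, for 14 members from day 0 to day 1 and for 19 members from day 1 to day 3. Values are the KO change minus the WT change on the log2 scale.

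From day 0 to day 1 the difference was above 0 for Pmvk (0.35), Idi1 (0.37), Fdps (0.47), Fdft1 (0.47), Ebp (0.21), Srebf1 (0.30), Srebf2 (0.34) and Abca1 (0.57). It was below 0 for Mvd (-0.70), Sc5d (-0.38), Insig1 (-0.37), Scap (-0.19), Acaca (-0.37) and Fads1 (-0.65). With arrays centred on their medians 11 members were below 0 and 0 above.

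From day 1 to day 3 the mevalonate genes Mvk (-0.59), Pmvk (-0.37), Mvd (-0.61) and Fdps (-0.61) had the lower change in KO. Among the sterol steps this held for Fdft1 (-0.62), Sqle (-0.54), Lss (-0.68), Cyp51 (-0.44), Tm7sf2 (-0.88), Msmo1 (-0.46), Nsdhl (-0.96) and Dhcr7 (-0.78). It also held for Insig1 (-0.70), Srebf1 (-0.30), Acaca (-0.40), Fasn (-0.30), Scd2 (-0.42), Fads1 (-0.61) and Abca1 (-0.85). With arrays centred on their medians 11 members were below 0 and 2 above.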

How the results depend on the processing

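Of 337 calls among 561 values, 273 held with each array left out, 261 under each of the other alternatives and 250 under both. The sign was reversed in 4 cases where the main fit or the alternative made a call. Lss from day 1 to day 3 in WT was 0.10 with the mean of its probe sets. With the probe set of largest variance Stard4 over the same days was -0.38 and Fads2 at high DOX against WT on day 3 was 0.25. Scd1 at low against zero DOX was 0.31 with that rule, and was not called in the main fit. The count of called members at high against zero DOX on day 1 (1) was 2 with array weights, 0 with the groups of the comparison only and 0 to 1 with an array left out. For low against zero DOX on day 3 (14) it was 8 with the groups of the comparison only and 9 to 15 with an array left out. For high against low DOX (4) it was 14 with array weights, 2 with arrays centred and 0 to 3 with an array left out. Array weights gave 21 at high DOX against WT on day 1 (13) and 29 for the genotype-by-time test of day 3 against day 1 (19), and leaving out an array gave 9 to 15 for that of day 1 against day 0 (14). The cause was not tested. Centring lost 34 calls and gained 27, and a sex term lost 10 and gained 17. The replicate block lost 0 of 337 calls and gained 11, and the block within each genotype lost 2 of 239, both of Pmvk, and gained 17. Among the comparisons of the report that use KO arrays it changed no call other than those printed beside their results. The table holds no signal over background, so no limit from dim probe sets was computed.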

Other observations

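Low DOX on day 1 enters no comparison, since 1 of its 3 arrays went against its label. Elovl6 read 8.39, 8.42 and 8.00 there, against 8.18, 8.27 and 8.09 at zero and 9.19, 8.73 and 8.55 at high DOX. Idi1 read 13.09, 12.90 and 12.87 at low DOX, overlapping the arrays at zero (13.02, 12.87 and 12.94).

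Probe sets of a gene disagreed for some members, and those of Fads2, Scd1, Fads1 and Elovl6 are given here. At day 3 of high against zero DOX, other probe sets of Fads2 rose by 1.57 (SE 0.11, limma adjusted p = 5.24e-11) and 1.80 (SE 0.13, limma adjusted p = 7.16e-11), where the brightest set gave 0.32. The second probe set of Scd1 rose by 0.48 (SE 0.09, limma adjusted p = 7.11e-05), where the brightest gave 0.08. A second probe set of Fads1 averaged 7.64 at zero and 7.97 at high DOX, where the brightest averaged 8.33 and 9.79. For Elovl6 the brightest averaged 7.64 and 9.58, another set 6.96 and 9.10, and a further set 7.89 and 8.18. The table does not say which transcript each set reads.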
